A study of Mus musculus with 9 samples.

Results

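Transcript levels of 3 progesterone-binding or progesterone-associated genes were followed in mouse granulosa cells through the first hours of induced ovulation. They were Pgr, which encodes the nuclear progesterone receptor, and Pgrmc1 and Pgrmc2, which encode the progesterone receptor membrane components. The genes were taken by symbol and were 3 of the 25059 gene identifiers in the deposited tables. Pgr stood on 2 rows and the other genes on 1 row each, and the rows of a gene were summed unless a row is named.

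The cells came from the ovaries of Kunming mice at postnatal day 21. Every group had been primed for 48 h with PMSG (5 IU), a mare serum gonadotropin that makes follicles grow. The 0 h group had no hCG, and the 1 h and 6 h groups were taken 1 and 6 h after 5 IU of hCG, a gonadotropin given in place of the LH surge to induce ovulation. Each group had 3 libraries, 9 in all, made from total RNA of unsorted granulosa cells as far as the labels say, and no label says that they came from separate animals. A p-value therefore measures the spread between libraries, which may be technical. Because no hCG-free cells of the same hours were compared, the hours after hCG cannot be told apart from time of day or from time since PMSG. All mice carried the PMSG treatment, so the 0 h group is not an untreated ovary.

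The nuclear progesterone receptor is a ligand-activated transcription factor. It is held by chaperones until it binds the hormone, and then it binds DNA and recruits coregulators. In the ovary it is known for its brief appearance in granulosa cells of preovulatory follicles after the LH surge, and mice that lack it do not ovulate. A single gene gives a long B form and a shorter A form that starts at a downstream start codon. PGRMC1 and PGRMC2 are unrelated in structure to the nuclear receptor. They are small membrane proteins with a cytochrome b5-like domain that binds heme, and they are known for contacts with cytochrome P450 enzymes and for a part in progesterone responses of granulosa cells.

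In GENCODE M21 (mm10), Pgr (ENSMUSG00000031870) lies on chromosome 9, from 8899833 to 8968611 on the plus strand, with 4 transcript models. Pgrmc1 (ENSMUSG00000006373) lies on chromosome X, from 36598206 to 36606079 on the plus strand, with 1 model of 3 exons that codes for 195 residues. Pgrmc2 (ENSMUSG00000049940) lies on chromosome 3, from 41066326 to 41083046 on the minus strand, with 2 models, of which the coding one gives 217 residues. No other annotated gene overlapped any of the 3 loci on either strand. No transcript of another gene shared a stretch of 50 bases with them.

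The upstream sequences are shown because the 3 genes differed in their response, described further on. They come from RefSeq's promoter table of GRCm38.p6 (the mm10 build), are written 5′ to 3′ on the gene's strand and end at the base before the start that this table uses. Capitals mark the GC box (GGGCGG) and the CCAAT box (CCAAT), each on either strand. For Pgr only the stretch from the CCAAT box to the GC box is printed (chr9:8899766-8899791, plus strand, 67 to 42 bases before the start at 8899833), because the RefSeq gene entry begins further upstream, at 8898900. The Pgr window therefore lies inside that entry, and it may in part be transcribed sequence. For Pgrmc1 (chrX:36597943-36598192, plus strand) and Pgrmc2 (chr3:41083047-41083296, minus strand) all 250 bases are given.
Pgr: ATTGGctagggaggggctttGGGCGG
Pgrmc1: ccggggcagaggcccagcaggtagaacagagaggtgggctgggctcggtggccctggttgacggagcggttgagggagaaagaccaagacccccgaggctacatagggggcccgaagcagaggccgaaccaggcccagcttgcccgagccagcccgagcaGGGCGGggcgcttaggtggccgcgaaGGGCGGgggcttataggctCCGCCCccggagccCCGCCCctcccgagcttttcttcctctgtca
Pgrmc2: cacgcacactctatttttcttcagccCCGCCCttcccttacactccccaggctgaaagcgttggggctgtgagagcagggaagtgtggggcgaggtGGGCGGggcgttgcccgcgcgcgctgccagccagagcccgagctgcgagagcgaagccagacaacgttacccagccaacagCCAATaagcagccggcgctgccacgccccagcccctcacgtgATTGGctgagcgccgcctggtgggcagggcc

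In the 250 bases before the start in that table, which for Pgr may be transcribed in part, Pgr had 43.6% G and C and 4 CpG dinucleotides, against 69.6% and 18 for Pgrmc1 and 67.2% and 20 for Pgrmc2. The medians of 32851 windows of that length, from 27025 genes, were 52.4% and 6. Of all windows, 20.1% had a lower G and C content than Pgr, 90.2% than Pgrmc1 and 86.5% than Pgrmc2. The GC box occurred 1 time in Pgr, 4 times in Pgrmc1 and 2 times in Pgrmc2, and 32.7% of all windows held it. The CCAAT box occurred 1 time in Pgr and 2 times in Pgrmc2 and was in 33.8% of windows. The TATAAA letters were in the Pgr window alone among the 3 (on the reverse strand, 212 to 207 bases before the start) and in 12.4% of all windows. The cAMP response element TGACGTCA (1.55% of windows), the AP-1 letters TGANTCA (6.75%) and the nuclear receptor half-site AGGTCA (14.0%) were in none of the 3. Its half-site TGACG, which TGACGTCA contains, was 1 time in Pgrmc1 and in 17.8% of windows, and the steroid receptor half-site TGTTCT was also 1 time in Pgrmc1 and in 16.1%. These matches are letters in a window and were not measured as bound sites.

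Levels are FPKM (fragments per kilobase, relative to all mapped fragments), a scale per length on which genes can be compared. The sum of FPKM over all genes ran from 491920 to 570986 per library, and 13587 to 13862 genes reached 1 FPKM. The depth in reads is unknown. All 9 granulosa cell markers, among them the FSH receptor Fshr and the aromatase Cyp19a1, averaged 1 FPKM or more at every time, as the label implies. Their summed level was 7792 to 8314 FPKM at 0 h, 7724 to 11514 at 1 h and 3262 to 3561 at 6 h. Markers of other cells were present in the same libraries, and their values stand beside the 6 h results.

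Pgr rose from a level under 1 FPKM to 19.4 FPKM within 1 h of hCG, and then to 39.8 FPKM at 6 h. The 0 h libraries held 0.254, 0.341 and 0.221 FPKM. At 1 h the values were 15.2, 18.8 and 24.3 FPKM, and at 6 h they were 36.8, 45.0 and 37.5 FPKM. No library of any time overlapped with those of another time, and the lowest 6 h library stood above the highest 1 h library. The number of other genes that separated in this way was not counted. The group means were 0.272 ± 0.0616, 19.4 ± 4.56 and 39.8 ± 4.54 FPKM (SD, n = 3 each). Among genes with a mean of 1 FPKM or more, Pgr ranked 4475 of 13744 at 1 h and 2106 of 13777 at 6 h.

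**Figure D1:**
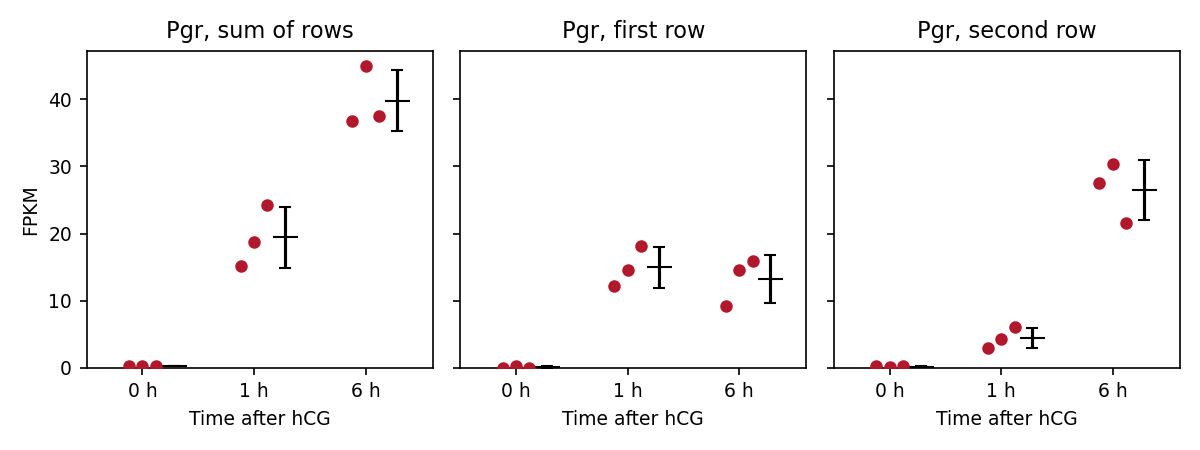
FPKM of Pgr in each of the 9 libraries (points) by hours after hCG, as the sum of its rows and for each row, with the mean and SD of 3 libraries (black). The sum climbs from under 1 FPKM at 0 h to between 15.2 and 24.3 at 1 h and between 36.8 and 45.0 at 6 h, and the 1 h and 6 h libraries overlap for the first row but not for the second.

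Differences were tested as log2(FPKM + 1) with limma over the 14535 genes that reached 1 FPKM in 3 or more libraries, and a gene was called when its p, adjusted by Benjamini-Hochberg over all of them, was below 0.05. Of the 3 genes, Pgr was called at 1 h against 0 h, where 15.7% of all tested genes were called. Its log2 change was 3.98 ± 0.15 (SE; 95% interval 3.64 to 4.32, limma adjusted p = 3.689e-07), the 15th highest of the 14535. At 6 h against 0 h it was 5.00 ± 0.15 (4.66 to 5.34, adjusted p = 1.742e-08), the 14th highest, with 56.6% of genes called. At 6 h against 1 h it was 1.02 ± 0.15 (0.68 to 1.35, adjusted p = 0.0003605), where 53.5% of genes were called (26.7% higher, 26.9% lower) and Pgr ranked 862 from the top. Pgr entered the test through its 1 h and 6 h libraries, since no 0 h library reached 1 FPKM. The added 1 FPKM compresses changes from so low a level: with 0.1 FPKM added, the 2 changes from 0 h were 5.70 and 6.75. The comparisons with 0 h share their 0 h libraries.

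Markers of granulosa and other cells were read in the same comparison, where 28.8% of all tested genes were higher and 27.9% lower. At 6 h against 0 h, 8 of 9 granulosa markers were called lower and none higher. All 8 tested oocyte markers of 9 were called higher at 6 h, and the summed level of the 9 went from 41.2 to 65.5 FPKM at 0 h to 73.6 to 109.6 FPKM at 6 h (53.8 to 64.6 at 1 h). The count was 5 without replicate 2 or 3 at 0 h or replicate 3 at 6 h. Of 6 tested endothelial markers, 3 were higher (5 without replicate 3 at 6 h), with a summed level of 16.9 to 24.3, 20.1 to 22.9 and 25.8 to 33.4 FPKM at 0, 1 and 6 h. Of 9 tested theca and stroma markers, 3 were lower, a share near that of all genes (6 without replicate 3 at 0 h), with sums of 200.3 to 309, 263 to 412 and 113 to 139.7 FPKM. The defining theca gene Cyp17a1 averaged 123, 193 and 21.9 FPKM. Dcn and Lum were the others called lower at 6 h (log2 changes −0.78 and −0.88). Among those not called, Insl3, Ptch1 and Pdgfra changed by −0.02, −0.07 and 0.05, and the collagen genes by −0.21 to −0.45. Leukocyte markers summed to 3.64 to 9.23 FPKM and surface and oviduct epithelium markers to 8.40 to 14.5 FPKM over all 9 libraries, and no list had a member at 0 in all libraries of a group. At 1 h against 0 h none of these other lists had a called member. The part of these cells in the values of Pgr was not tested. In bulk RNA, fewer cells of a type and less RNA per cell cannot be told apart.

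The rows of Pgr did not change alike. The tables carry no transcript names, so the rows are given in their order in the files and could not be matched to gene models. How the fragments of Pgr were divided between its rows is not given in the sources used here. A row's value is thus the estimate of an unnamed program, and a difference between rows may come from that division, which was not tested. In GENCODE M21, Pgr-201 and Pgr-202 have the same 8 exons and differ only in the start codon, with 926 and 761 codons, a difference of 165 as between the B and A forms. Pgr-204 also has 926 codons but begins 635 bases further upstream and ends 3186 bases further downstream, and Pgr-203 is a retained intron. RNA with the same exons cannot be divided between the A and B forms by exon reads.

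The first row stood at 0.0218, 0.237 and 6.38e-06 FPKM at 0 h. It reached 12.2, 14.6 and 18.2 FPKM at 1 h and stood at 9.21, 14.6 and 15.9 FPKM at 6 h, so the 1 h and 6 h libraries overlapped. In a limma fit over 24544 rows it was higher than at 0 h by 3.87 ± 0.22 at 1 h (adjusted p = 2.704e-05) and by 3.69 ± 0.22 at 6 h (5.766e-06). Both rows of Pgr entered that fit through their 1 h and 6 h libraries, since neither reached 1 FPKM in a 0 h library. With 0.1 FPKM added, the changes of the first row from 0 h were 6.54 and 6.34. Its difference between 6 h and 1 h was −0.18 (95% interval −0.67 to 0.31, adjusted p = 0.547). That interval spans 0, and the sign turned to 0.04 without replicate 1 at 6 h.

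The second row stood at 0.232, 0.103 and 0.221 FPKM at 0 h. It reached only 3.01, 4.22 and 6.07 FPKM at 1 h and then 27.6, 30.4 and 21.6 FPKM at 6 h, with no overlap between any times. The number of other rows that separated in this way was not counted. Its log2 change was 2.16 ± 0.21 at 1 h (limma adjusted p = 0.0005625), 4.53 at 6 h (2.098e-06) and 2.37 from 1 h to 6 h (1.89 to 2.85, adjusted p = 6.172e-05). Of all rows, 7.29% were called at 1 h against 0 h (5.61% higher, 1.68% lower), 38.4% at 6 h against 0 h (20.2% and 18.2%) and 35.7% at 6 h against 1 h (17.7% and 18.1%). Between 1 h and 6 h the mean of the second row went from 4.43 ± 1.54 to 26.5 ± 4.50 FPKM, and that of the first row from 15.0 ± 3.02 to 13.2 ± 3.55 FPKM (SD, n = 3 each).

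The share of Pgr FPKM on the first row shows the same turn. It was 80.2, 77.5 and 75.0% at 1 h and 25.03, 32.4 and 42.4% at 6 h, a difference of −44.3 percentage points. At 0 h it was 8.57, 69.7 and 0.00288%, shares of a total under 1 FPKM that scatter over most of the range. With those libraries included, the exact permutation test over the 9 libraries (two-sided, all arrangements into 3 groups of 3) gave p = 0.104, adjusted 0.139 over 3 quantities. The same exact test gave p = 0.003571 without replicate 2 at 0 h, the library at 69.7%. Leaving out any other single library gave an exact permutation p between 0.118 and 0.175. For 6 h against 1 h alone the exact permutation p was 0.1, the smallest that 3 against 3 allows.

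Rows of other genes show how common such a turn was. Among 1490 genes with exactly 2 rows that were measurable at 1 h and 6 h, the shares of 321 (21.5%) did not overlap between these times. The larger row at 1 h was the smaller row at 6 h in every library for 18 genes (1.21%), Pgr among them. A change in share as large as that of Pgr was found in 5 genes (0.336%), again with Pgr, and the median absolute change was 3.96 percentage points. In a limma fit of the log2 ratio of both rows across these genes, chosen after the row values were seen, Pgr changed by −2.55 ± 0.28 (95% interval −3.19 to −1.91, adjusted p = 0.00316), the 5th smallest p. That fit called 37 genes (2.48%), 21 of them lower (1.41%). The call for Pgr was lost with 0.1 in place of 1 FPKM added (−2.79, adjusted p = 0.0909). Since the test was chosen on these values, it is a description of them.

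**Figure D2:**
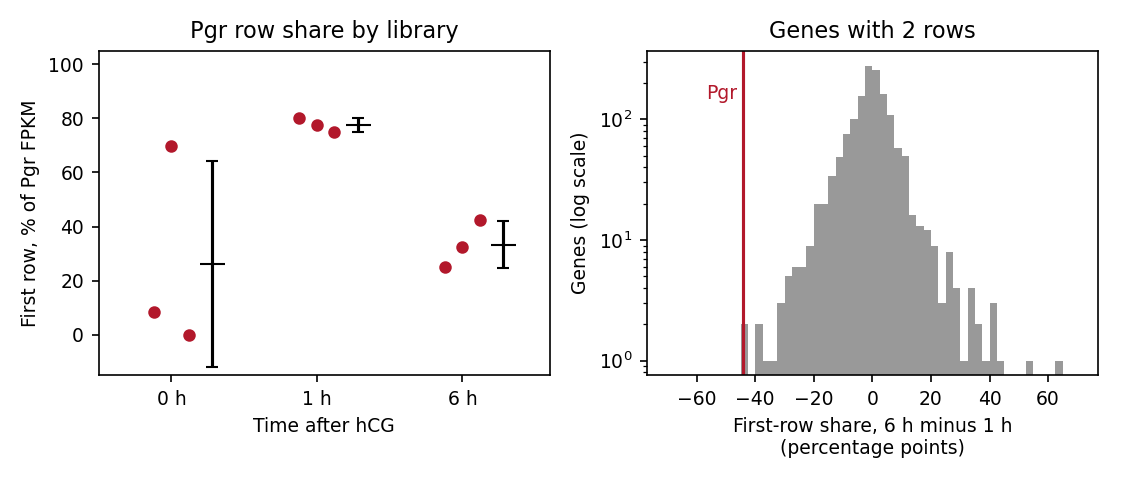
Left, the share of Pgr FPKM on its first row in each library (points) with the mean and SD of 3 libraries (black); right, the change of that share from 1 h to 6 h for 1490 genes with 2 rows, with the gene count on a log axis and Pgr marked. The 1 h libraries lie at 75.0 to 80.2% and the 6 h libraries at 25.03 to 42.4%, and few genes lie as far from 0 as Pgr.

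Pgrmc1 was the most abundant of the 3 genes at every time. It stood at 91.1, 85.9 and 83.1 FPKM at 0 h, at 94.5, 87.9 and 91.6 FPKM at 1 h, and at 100.9, 99.4 and 88.7 FPKM at 6 h. The libraries of all 3 times overlapped, around means of 86.7 ± 4.05, 91.3 ± 3.29 and 96.3 ± 6.64 FPKM (SD, n = 3 each). Pgrmc1 ranked 733 of 13825 genes with 1 FPKM or more at 0 h, so that 94.7% of them were lower.

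Pgrmc1 was not called in any comparison. Its log2 change was 0.08 ± 0.07 at 1 h (95% interval −0.08 to 0.23, limma adjusted p = 0.514) and 0.15 at 6 h (−0.00 to 0.30, adjusted p = 0.0903). From 1 h to 6 h it was 0.07 (−0.08 to 0.23, adjusted p = 0.389). These intervals leave room for changes of up to 0.30 and do not show equal levels. Without replicate 3 at 6 h, the lowest 6 h library, the change at 6 h was 0.21 and was called (adjusted p = 0.0281).

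Pgrmc2, the other membrane component, was lower than Pgrmc1 in every library. It stood at 24.5, 25.9 and 25.03 FPKM at 0 h, at 21.3, 23.6 and 22.2 FPKM at 1 h, and at 21.2, 20.5 and 25.2 FPKM at 6 h. All 1 h libraries lay below all 0 h libraries, and 2 of 3 at 6 h did, while replicate 3 at 6 h lay among the 0 h values. How many other genes separated in this way was not counted, and the change at 1 h was not called. The means were 25.1 ± 0.739, 22.4 ± 1.14 and 22.3 ± 2.54 FPKM.

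Pgrmc2 was not called either. Its log2 change was −0.16 ± 0.08 at 1 h (95% interval −0.35 to 0.03, limma adjusted p = 0.226), −0.17 at 6 h (−0.36 to 0.02, adjusted p = 0.112) and −0.01 from 1 h to 6 h (−0.20 to 0.18, adjusted p = 0.952). Scaling each library to the same sum of FPKM moved the median of all genes to −0.14 at 1 h and −0.09 at 6 h, and Pgrmc2 to −0.32 (adjusted p = 0.0342) and −0.26 (adjusted p = 0.0354), both called. Relative to that median the change was −0.17 and −0.18, against −0.16 and −0.17 as deposited. The scaled change of Pgrmc1 at 1 h was −0.08, or 0.06 relative to the median. Under quantile normalization Pgrmc2 changed by −0.25 at 1 h (limma adjusted p = 0.0829) and by −0.27 at 6 h (0.0257, called). Relative to the median under that setting these were −0.20 and −0.23. As deposited but without replicate 3 at 6 h, Pgrmc2 was called lower at 6 h (−0.26, limma adjusted p = 0.0163).

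**Figure D3:**
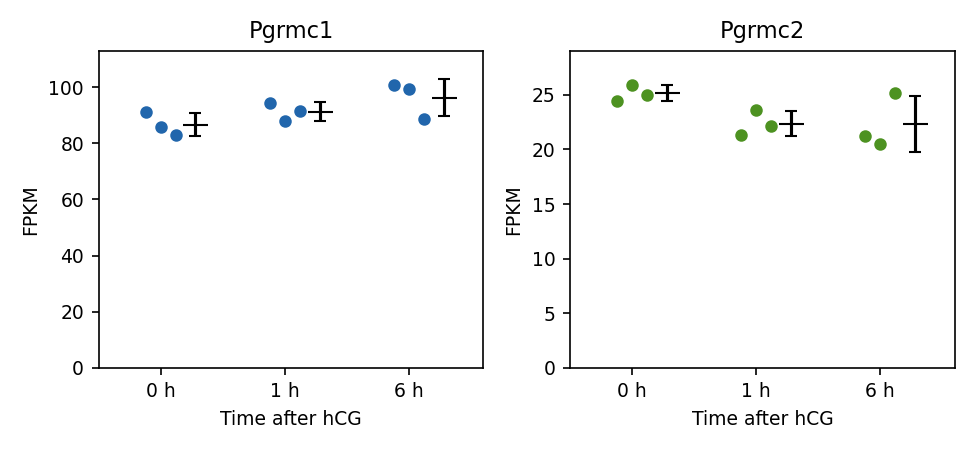
FPKM of Pgrmc1 and Pgrmc2 in each of the 9 libraries (points) by hours after hCG, on axes from 0, with the mean and SD of 3 libraries (black). Pgrmc1 lies between 83.1 and 100.9 FPKM and Pgrmc2 between 20.5 and 25.9 FPKM, and the replicate at 6 h that is lowest for Pgrmc1 is highest for Pgrmc2.

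The relation of the genes to each other followed Pgr. At 0 h Pgrmc1 was above Pgrmc2 and both were far above Pgr, with no overlap of libraries. At 1 h Pgr (15.2 to 24.3 FPKM) overlapped Pgrmc2 (21.3 to 23.6 FPKM), and at 6 h every Pgr library was above every Pgrmc2 library and below every Pgrmc1 library. The ratio of Pgr to the sum of Pgrmc1 and Pgrmc2 was 0.00220, 0.00305 and 0.00205 at 0 h, 0.131, 0.168 and 0.213 at 1 h, and 0.301, 0.375 and 0.329 at 6 h. The exact permutation p over the 9 libraries was 0.00357, the smallest that arrangements of 9 libraries into 3 groups of 3 can give (adjusted 0.0107 over 3 quantities). The ratio of Pgrmc1 to Pgrmc2 was 3.45 ± 0.235, 4.10 ± 0.353 and 4.37 ± 0.742 (SD, n = 3 each), with an exact permutation p of 0.139, adjusted 0.139.

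**Figure D4:**
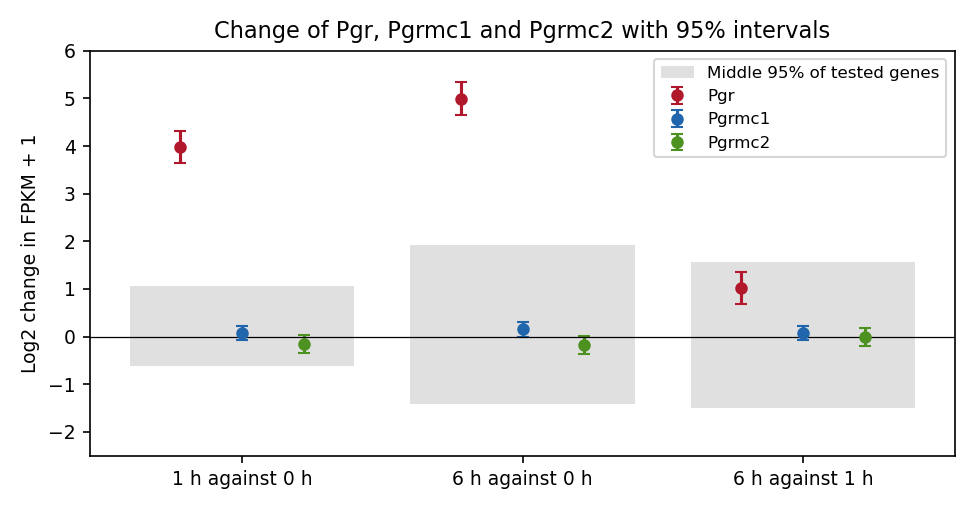
Log2 change in FPKM + 1 of Pgr, Pgrmc1 and Pgrmc2 (points) with 95% intervals from limma in the 3 comparisons; grey bars span the middle 95% of the 14535 tested genes. Pgr lies above the bar in both comparisons with 0 h and inside it between 6 h and 1 h, and the other genes lie near 0.

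The genes whose levels followed each of the 3 most closely over the 9 libraries are given as a description, since points of the same time share their treatment. For Pgr they were Pthlh (Pearson's r = 0.997), Epgn (0.997), Egr3 (0.996), Ptgs2 (0.995) and Gtpbp4 (0.992). Ptgs2, the inducible prostaglandin synthase, went from 0.712 to 46.4 and 118.6 FPKM, and Pthlh, which encodes parathyroid hormone-like peptide, from 0.150 to 7.61 and 12.6 FPKM. Pearson's r does not weigh the size of a change, and Gtpbp4 went only from 15.1 to 19.6 and 21.0 FPKM. For Pgrmc1 the nearest were Eng (0.951), Dync1li1 (0.938), Tdrd7 (0.932), Sla2 (0.931) and Cul5 (0.924). For Pgrmc2 they were Armc9 (0.954), Dzip1l (0.927), Fam134c (0.923), Rpa2 (0.922) and Terf1 (0.921).

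Further genes of the progesterone pathway were read from lists written from general knowledge, with earlier results of these data known. Over all tested genes, 9.68% were higher and 5.98% lower at 1 h, and 28.8% and 27.9% at 6 h, both against 0 h. The median log2 change of all genes was −0.005 and −0.004. Counts are given against these shares.

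On the side of the hormone, 2 of 8 genes of progesterone synthesis and removal were higher at 1 h and none lower, and at 6 h 5 were higher and 2 lower (median log2 change 0.72). Star, which brings cholesterol into the mitochondrion, averaged 96.4, 308 and 606 FPKM at 0, 1 and 6 h, a log2 change of 2.64 ± 0.13 at 6 h. Fdx1, the electron donor of the side-chain cleavage enzyme, averaged 263, 1015 and 887 FPKM. Hsd3b1, which forms progesterone from pregnenolone, fell by 0.98 at 6 h to 1798 FPKM, and the 5-alpha-reductase gene Srd5a1 fell by 0.75. After scaling to the same sum, Srd5a1 was also called lower at 1 h (−0.46, limma adjusted p = 0.0397). A call higher at 6 h was lost under either other scaling, and without replicate 3 at 0 h or replicate 1 or 2 at 6 h. Another gene was called higher at 6 h only under some alternatives, among them leaving out replicate 2 at 1 h.

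The other membrane progestin receptors did not rise with Pgr. Of the 5 PAQR family genes none was higher, and 2 were lower at 1 h and 4 at 6 h (median −0.73). At 1 h no more than 1 was called when any single library was left out, and none with 0.1 FPKM added, without the filter on low values or with only the 2 groups in the fit. Paqr8 averaged 22.4, 20.2 and 4.41 FPKM and fell by 2.11 at 6 h, and Paqr6 averaged 6.87, 4.18 and 1.29 FPKM and fell by 1.78. Paqr7, the most abundant of them, fell by 0.45 to 35.1 FPKM. Nenf and Cyb5d2, relatives of Pgrmc1 and Pgrmc2 with the same heme-binding domain, were not called at 1 h and were both lower at 6 h, Cyb5d2 by a call (−0.34) lost when any of several single libraries was left out. Nenf averaged 87.7 ± 2.39 FPKM at 0 h, close to Pgrmc1, and 40.2 ± 3.39 at 6 h, a log2 change of −1.11 ± 0.11.

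Other steroid receptor genes were also read. The estrogen receptor genes Esr2 and Esr1 averaged 82.3 and 9.09 FPKM at 0 h and 24.6 and 3.42 at 6 h (log2 changes −1.69 and −1.19), and neither was called at 1 h. The glucocorticoid receptor gene Nr3c1 averaged 7.0, 9.71 and 12.1 FPKM (0.72 at 6 h), a change that was 0.07 and not called from its most abundant row alone. Esr2 is also among the granulosa markers.

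Of 11 chaperones of the receptor, 8 were higher at 1 h and 7 at 6 h, none lower (medians 0.31 and 0.27). The heat shock protein gene Hspa8 averaged 435, 708 and 513 FPKM, a log2 change of 0.71 ± 0.14 at 1 h. The cochaperone genes Fkbp5 and Bag1 changed by 0.84 and 1.01 at 6 h, to 185 and 119 FPKM. Both counts depended on the scaling. At 1 h it was 2 after scaling to the same sum and 0 after quantile normalization, and 1 without replicate 3 at 1 h, and at 6 h it was 4 after quantile normalization. Bag1 changed by −3.60 from its most abundant row alone (adjusted p = 0.0507, limma). Of 11 coregulators 2 were higher at 1 h, and 0 under either other scaling, and at 6 h 5 were higher and 1 lower (2 and 1 after scaling, 3 higher without replicate 2 of either the 0 h or the 6 h group). Nrip1, a corepressor needed for ovulation, averaged 72.1, 91.0 and 29.8 FPKM and fell by 1.25 at 6 h, and the acetyltransferase gene Ep300 rose by 0.86 to 58.0 FPKM.

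Among 14 genes reported to depend on PGR in the ovary, 6 were higher at 1 h and all 14 at 6 h, none lower at either (median 2.29 at 6 h). The 6 h count was 13 after scaling to the same sum and 12 after quantile normalization, and 3 genes were called lower at 1 h under either. Some 6 h calls were also lost without replicate 2 at 6 h or with any single 0 h library left out. Some 1 h calls were lost without replicate 3 at 0 h or without replicate 1 or 3 at 1 h. The list was not tested for dependence here, since every library carried the Pgr gene. Prkg2, a cGMP-dependent protein kinase, averaged 0.498, 1.08 and 135 FPKM and was not called at 1 h (log2 change 0.49, limma adjusted p = 0.0643). It was called higher at 1 h with 0.1 FPKM added (1.05, limma adjusted p = 0.0235) and without replicate 2 at 0 h or at 6 h. The neuropeptide gene Adcyap1 averaged 0.379, 2.75 and 51.1 FPKM. The EGF-like factor genes Ereg and Areg peaked instead at 1 h (309 and 173 FPKM), and averaged 72.3 and 14.1 FPKM at 6 h.

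Of 9 reported partners of PGRMC1, among them genes of sterol and heme metabolism, the growth factor receptor gene Egfr and the RNA-binding protein gene Serbp1, 5 were higher at 1 h and none lower (4 and 2 after scaling to the same sum, 3 higher from the most abundant rows), and at 6 h 6 were higher and 3 lower. Egfr (log2 changes 0.47 and 0.82) and Serbp1 (0.30 and 0.22), which are not genes of sterol or heme metabolism, were among those called higher at both times, and the pair is named after its values were seen. Serbp1 was called at neither time under either other scaling, from its most abundant row, or with any single 0 h library left out. Egfr was not called at 1 h from its most abundant row alone (0.23, limma adjusted p = 0.165). The sterol demethylase gene Cyp51 averaged 54.0, 97.6 and 141 FPKM and Insig1, which holds back sterol-regulated transcription, 59.6, 93.6 and 136 FPKM, log2 changes of 1.37 and 1.17 at 6 h. Por, the electron donor of microsomal P450 enzymes, averaged 36.0, 73.0 and 48.8 FPKM. Its call at 6 h (0.43) was lost without replicate 3 at 0 h or replicate 1 at 6 h (0.35 in each case). The sterol sensor gene Scap fell by 1.03 to 85.1 FPKM.

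**Figure D5:**
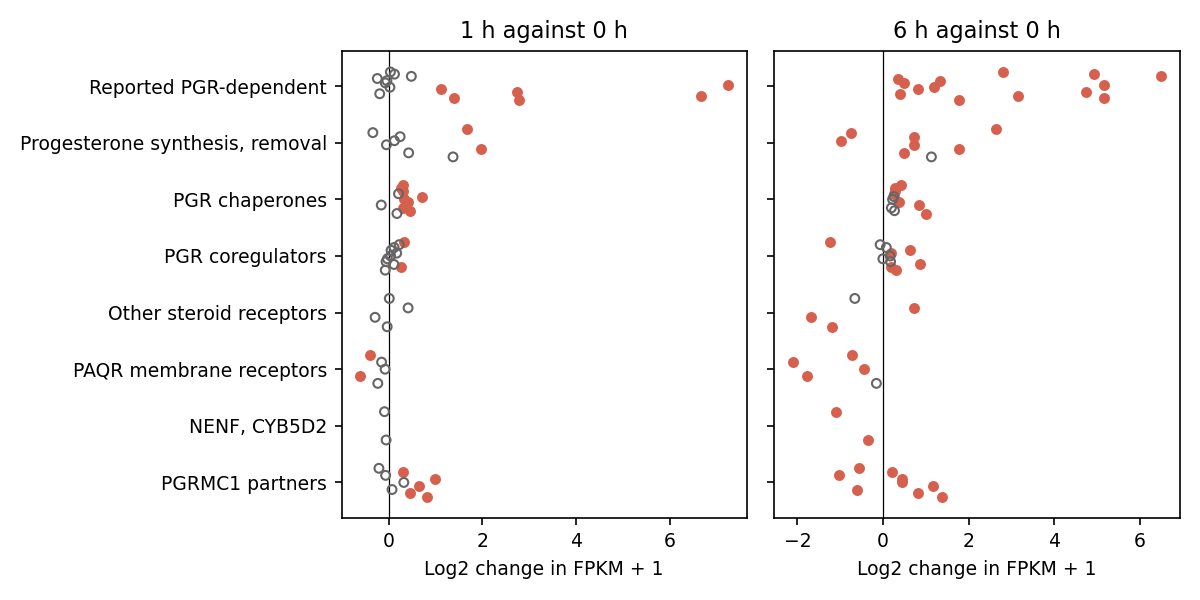
Log2 change in FPKM + 1 at 1 h and 6 h against 0 h for the tested genes shown from 8 lists around the progesterone receptor (1 point per gene); filled points were called by limma at an adjusted p below 0.05, open points were not. All 14 reported PGR-dependent genes lie right of 0 at 6 h, and the 4 called PAQR genes lie left of it.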

How the data were processed

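Per the labels' protocols, Trizol was used to isolate RNA, of which 1 µg went into each TruSeq (Illumina) library. The authors deposited FPKM values, 54759 rows per library in the same row order. The submitters' processing notes name HISAT2 2.0.5 and mm10. How FPKM were calculated, with which annotation and filters, is not given in the sources used here. No counts were used, and the depth and any counting error are unknown.

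The FPKM of the rows of a gene identifier were summed. limma 3.58.1 (R 4.3.3, trended prior variance) was fitted to log2(FPKM + 1) of all genes with at least 1 FPKM in 3 or more libraries, with 3 group means, 9 libraries and 6 residual degrees of freedom, and Benjamini-Hochberg adjustment over all genes. Rows were fitted in the same way. Ratios and the row share were tested by exact permutation over libraries. The fit was tested on simulated data.

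The 3 genes and all lists were chosen with earlier results of these data known. Of each list, up to 4 called genes with the largest change from 0 h could be named, and for each of the 3 genes the 5 closest named genes by Pearson's r with a highest group mean of 5 FPKM or more, leaving out predicted, clone and pseudogene names. Alternatives were another pseudocount (0.1), no filter, other scalings, the most abundant row, only the groups compared, a constant prior, a replicate block and leaving out each library. Gene models came from GENCODE M21 and upstream sequences from RefSeq, where all 3 genes were found. Sequences of proteins are not analysed here, and 1 listed gene is not reported here.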

Additional observations from a re-analysis of the deposited data

How the results depend on the processing

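Pgr kept its direction and its call in all 3 comparisons under all 17 alternatives, with log2 changes of 2.16 to 5.70 at 1 h, 4.53 to 6.75 at 6 h and 0.86 to 2.37 from 1 h to 6 h; the lowest values from 0 h and the highest from 1 h came from its most abundant row alone. Pgrmc1 at 1 h changed sign to −0.085 with libraries scaled to the same sum and to −0.14 under quantile normalization, which also gave −0.018 at 6 h, and leaving out single libraries gave 0.11 to 0.21 at 6 h. Pgrmc2 was called lower at 1 h (−0.32) and 6 h (−0.26) after scaling and at 6 h under quantile normalization (−0.27); leaving out single libraries gave −0.26 to −0.11 at 6 h. From 1 h to 6 h Pgrmc2 stood at 0.057 after scaling and at −0.094 to 0.049 with single libraries left out. Over the same omissions, the first Pgr row changed from 1 h to 6 h by −0.32 to 0.040 and the row share by −48.8 to −40.1 percentage points. The change of the log2 ratio of Pgrmc1 to Pgrmc2 from 1 h to 6 h ran from −0.0001 to 0.23. The exact permutation test of that ratio over all 3 times gave p = 0.01429 without replicate 3 at 6 h. The ratio of both Pgr rows changed by −2.79 and was no longer called with 0.1 FPKM added, an alternative added after the row values were seen. The number of genes called at 1 h was 2276 (1407 higher, 869 lower), 3636 after scaling (1002 higher, 2634 lower) and 1221 to 2857 with single libraries left out: 1462 without replicate 1 and 1409 without replicate 3 at 0 h, 1336 without replicate 1 and 1221 without replicate 3 at 1 h. With the replicate number as a block, 1991, 8089 and 7632 genes were called in the 3 comparisons against 2276, 8231 and 7783, no call of Pgr, Pgrmc1 or Pgrmc2 changed, and 0 of 5 PAQR genes were called at 1 h against 2. Deviations from the group means correlated at −0.078 to 0.147 between libraries of the same number and at −0.151 to 0.086 between others, and 4 of 9 libraries correlated best with their own number, so the numbers were not taken to pair the libraries. The causes were not tested. With 3 libraries per time and unknown depth, changes of Pgrmc1 and Pgrmc2 within their intervals could have been missed.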
